A study of Mus musculus with 32 samples.

Results

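Control (CTL) calf muscle was compared with CTL liver at the level of transcripts. The 12 libraries analysed here, 6 of each tissue, were all those labelled as control muscle or control liver among the 32 samples of the study. They came from untreated C57BL/6 mice at 200 d of age, with 3 mice labelled female and 3 labelled male in each tissue. The study's methods name males as the default, which these labels do not match. The study deleted COX10, which encodes an assembly factor of cytochrome c oxidase, in skeletal muscle through Cre expressed from the locus of Myl1, a myosin light chain of fast fibres. The CTL mice are described as control littermates, and the COX10 and Cre alleles they carried are not given in the sources used here. The muscle sample held gastrocnemius and soleus together, so it was a mixture of fast and slow fibres, and the feeding state at collection is not given. Reads came from the 3′ end of polyadenylated RNA (QuantSeq), and a count therefore does not grow with transcript length, so that levels are set side by side between genes, except those whose reads the counting may have lost or split. Values per gene are CPM, the count scaled to a common library size after TMM scaling, and shares are percent of a library's raw counts.

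Skeletal muscle and liver divide the work of whole-body metabolism. Muscle burns glucose and fatty acids for contraction, keeps glycogen for its own use and buffers ATP with phosphocreatine. Liver releases glucose to the blood, disposes of nitrogen as urea, makes ketone bodies and bile acids, clears foreign compounds and secretes most plasma proteins. Many steps shared by both tissues are run by paralogs, which are separate genes for the same function with different regulation. The comparison asks which functions and which paralogs each healthy tissue transcribed, and how much of its messenger RNA each function took.

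Total counts ran from 434494 to 8936522 per muscle library and from 1955599 to 16044634 per liver library. No pair of libraries was identical. The labels do not say whether a muscle and a liver library came from the same mouse, and p-values measure the spread between these samples. The tissue labels held in every library. The 12 hepatocyte markers took 0.00468% to 0.377% of counts in muscle (median 0.00783%) and 12.4% to 17.5% in liver (median 15.7%), and the 12 muscle fibre markers took 10.2% to 18.1% of counts in muscle (median 15.8%) and 0.00338% to 0.0161% in liver (median 0.00779%). CTL muscle 2 stood apart: it was the shallowest library, and all 12 hepatocyte markers were higher in it than in any other muscle library, at 1.33% to 6.41% of the median liver share (median 2.33%), against 0% to 0.424% (median 0.0452%) in the other 5. Fitted fold changes of genes higher in liver are therefore also given without CTL muscle 2 where leaving it out moved them by over 1.5 times or changed the call, and for some others, and the origin of these counts was not tested. CTL liver 1, labelled female, had 1746 counts of 4 genes on the Y chromosome against 1 count of Xist. CTL liver 4, labelled male, had 450 Xist counts and no Y-linked ones, so that both went against their labelled sex. In each tissue, 3 libraries also differed together from the other 3 (48.1% of the variance left after centring each tissue): Malat1, a nuclear RNA, took 0.0132% to 0.0334% of counts in CTL muscle 1, 2 and 4 and CTL liver 1, 5 and 6, and 0.110% to 0.231% in the rest. The 2 sides were balanced over the tissues, but in liver they were the same division as that by Y-linked transcripts.

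The 2 tissues differed in most of the genes that could be tested. Of 10059 genes tested, 2488 (24.7%) were higher in muscle and 3388 (33.7%) were higher in liver by the quasi-likelihood test of edgeR at an adjusted p under 0.05. These percentages are the background for the counts of list members given here. With relative log expression 2790 were higher in muscle and 3087 in liver, and with DESeq2, run on 21669 genes without the expression filter, 4219 and 3988. A fold change over 32 was reached by 470 of the genes higher in muscle and 655 of those higher in liver. In 1621 genes (16.1%) every muscle library lay above every liver library, and in 2234 (22.2%) the reverse held. The median log2 fold change over all tested genes, muscle over liver, was -0.18, and it was -0.05 when libraries were scaled by relative log expression, so that a small fold change is read against that shift. In bulk tissue fewer cells of a type and less RNA per cell cannot be told apart, and this holds for every difference given here. Without CTL muscle 2, 2966 genes were higher in muscle and 3208 in liver. Without CTL muscle 2 and CTL liver 1 and 4 together, the counts were 2822 and 2989. Within the 3 and 3 libraries on one side of the shared division they were 2768 and 3098, and on the other side 2733 and 2988.

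**Figure D1:**
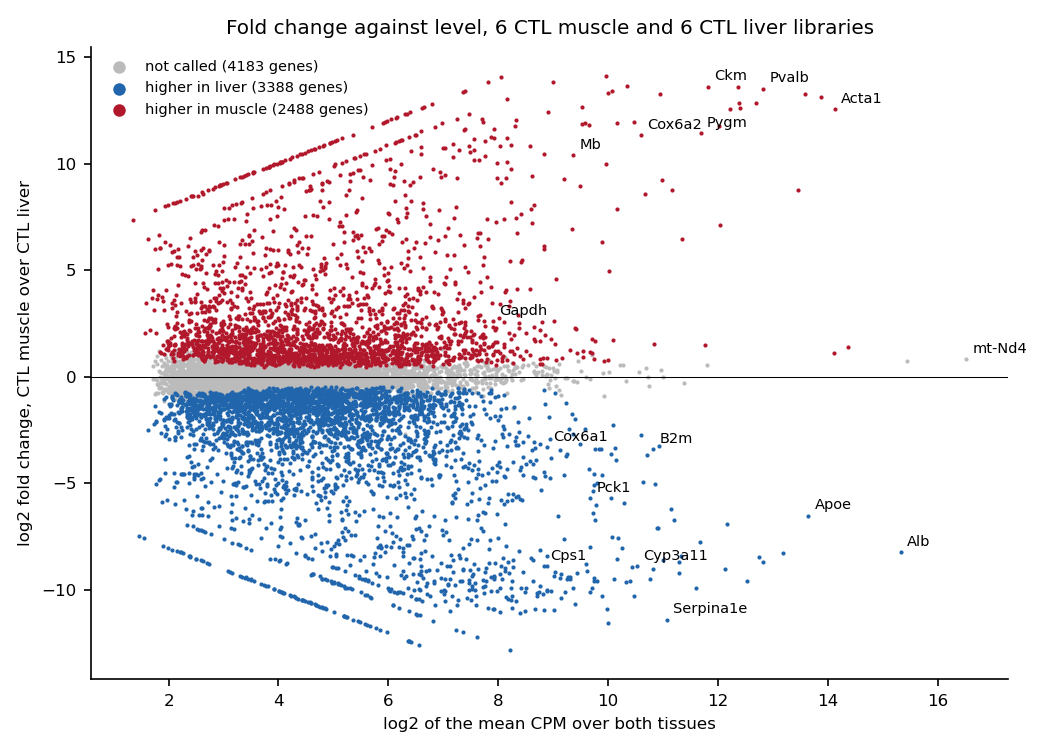
Each point is 1 of 10059 tested genes, with the log2 of its mean CPM over both tissues on the x axis and the log2 fold change of CTL muscle over CTL liver on the y axis. Red points (2488 genes) were higher in muscle and blue points (3388) higher in liver, and named genes such as Acta1, Ckm, Alb and Apoe lie far from 0 while mt-Nd4 lies near it.

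Muscle concentrated its counts in fewer genes than liver, and the tissues overlapped when genes encoded in mitochondrial DNA (mtDNA) were left out. The 10 most abundant genes of a library took 33.6% to 43.6% of its counts in muscle (median 37.3%) and 25.5% to 31% in liver (median 28.3%), without overlap (exact permutation test, 6 against 6 libraries, two-sided p = 0.00216, adjusted over 3 measures 0.00649). A share of 50% of all counts fell on 16 to 95 genes in muscle (median 31.5) and 69 to 132 genes in liver (median 98.5), and CTL muscle 2 gave the value of 95 (exact permutation p = 0.00433, adjusted 0.00649). The number of genes detected at a common depth of 434494 counts was 11058 to 13341 in muscle and 11006 to 12026 in liver, and did not pass the test (exact permutation p = 0.701, adjusted 0.701). Without mtDNA-encoded genes, the 10 most abundant genes took 15.8% to 30.9% of the remaining counts in muscle and 20.1% to 25.2% in liver, which overlapped (exact permutation p = 0.396, adjusted 0.594). On the same basis 50% of the counts fell on 70 to 423 genes in muscle (median 144) and 131 to 224 in liver (median 166), and the difference in means turned to 9 genes more in muscle, which did not pass the test (exact permutation p = 0.933, adjusted 0.933). Only 6 of the 13 protein genes of mtDNA passed the filter on low counts, and 3 had no count in any library. Ranks and measures that include mtDNA-encoded genes may therefore rest on the counting, which was not tested. The mtDNA-encoded NADH dehydrogenase subunit mt-Nd4 led muscle with 10.9% to 14.2% (median 11.9%) of counts, followed by cytochrome b (mt-Cytb) with 3.78% to 7.55% (median 5.91%) and skeletal actin (Acta1) with 2.48% to 4.46% (median 3.75%). Albumin (Alb), the main plasma protein, led liver with 5.37% to 11.5% (median 7.99%), ahead of mt-Nd4 with 5.64% to 7.26% (median 6.49%), mt-Cytb with 1.59% to 4.74% (median 3.2%) and apolipoprotein E (Apoe) with 1.82% to 3.52% (median 2.05%).

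**Figure D2:**
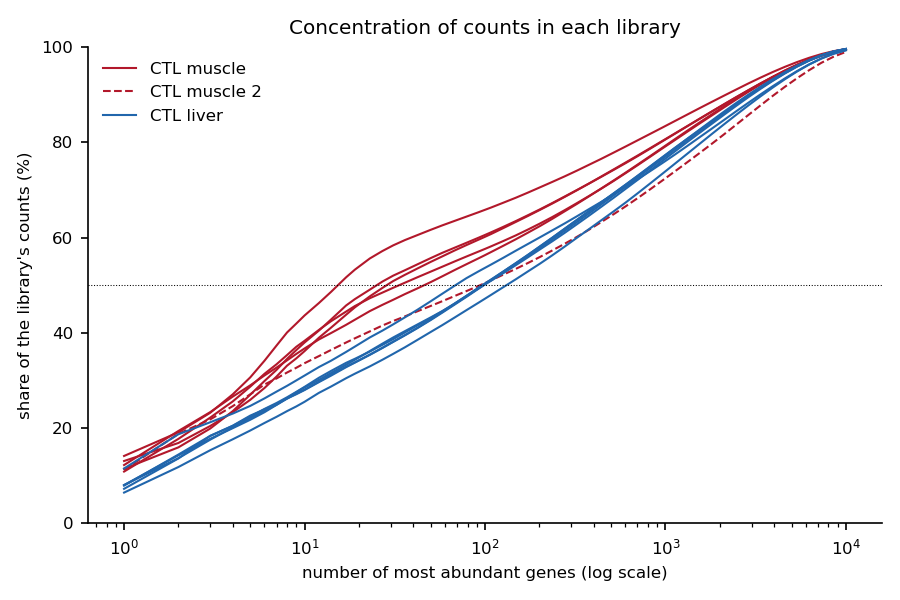
Each line is 1 library, with the number of most abundant genes on a log x axis and their share of the library's counts in percent on the y axis. At 10 genes all muscle lines (33.6% to 43.6%) lie above all liver lines (25.5% to 31.0%), and the dashed line of CTL muscle 2 is the lowest of muscle and crosses into liver beyond that.

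The promoters of 4 genes are shown because these genes carry the contrast: Acta1 and Alb as the most abundant nuclear transcripts of each tissue, and Cox8b and Cox8a as a paralog pair with opposite calls. Sequences are RefSeq windows on GRCm38.p6 from 250 bases before the transcript start to 50 after it, given 5′ to 3′ on the coding strand, with matches in capitals. The motifs searched on both strands were TATAAA for the core promoter box of that name, CAGCTG for an E-box bound by myogenic factors, GTTAAT for part of the site of the hepatic factor HNF1, the CArG box of serum response factor and the MEF2 box. Acta1 spans chr8:123894726-123895025, minus strand, Cox8b chr7:140900397-140900696, minus strand, Cox8a chr19:7217567-7217866, minus strand and Alb chr5:90460620-90460919, plus strand.
Acta1: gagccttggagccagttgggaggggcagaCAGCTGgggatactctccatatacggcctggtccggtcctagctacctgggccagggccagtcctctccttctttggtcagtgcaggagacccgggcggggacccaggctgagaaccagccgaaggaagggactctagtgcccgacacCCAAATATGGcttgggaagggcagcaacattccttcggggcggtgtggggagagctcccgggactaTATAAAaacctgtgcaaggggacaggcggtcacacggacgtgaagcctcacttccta
Cox8b: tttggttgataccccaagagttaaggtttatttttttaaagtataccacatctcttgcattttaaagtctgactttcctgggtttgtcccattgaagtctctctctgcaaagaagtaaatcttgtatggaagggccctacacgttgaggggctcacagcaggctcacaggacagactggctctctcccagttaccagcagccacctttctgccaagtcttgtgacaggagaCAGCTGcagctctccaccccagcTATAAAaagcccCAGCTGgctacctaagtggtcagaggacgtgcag
Cox8a: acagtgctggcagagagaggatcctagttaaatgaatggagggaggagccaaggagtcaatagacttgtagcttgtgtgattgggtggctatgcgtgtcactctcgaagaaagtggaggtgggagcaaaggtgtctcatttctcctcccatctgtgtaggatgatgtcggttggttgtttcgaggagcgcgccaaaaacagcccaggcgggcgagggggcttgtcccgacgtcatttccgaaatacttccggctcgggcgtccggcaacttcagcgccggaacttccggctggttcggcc
Alb: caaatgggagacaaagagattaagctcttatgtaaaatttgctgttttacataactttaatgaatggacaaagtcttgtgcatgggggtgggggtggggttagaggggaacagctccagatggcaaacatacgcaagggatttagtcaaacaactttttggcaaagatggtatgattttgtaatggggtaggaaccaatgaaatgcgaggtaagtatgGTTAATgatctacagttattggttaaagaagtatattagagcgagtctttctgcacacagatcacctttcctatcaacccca
Acta1 held an E-box from base -221 to -216, a CArG box from -73 to -64 and a TATA box from -7 to -2, counted from the RefSeq transcript start. For Acta1 and Alb that start lies upstream of the gene start in the coordinates given with their levels. Counted from the latter, their motifs lie further upstream, so positions depend on the start used. Cox8b held an E-box from -19 to -14, another from 17 to 22 and a TATA box from 5 to 10. Alb held GTTAAT from -32 to -27, and Cox8a held none of the motifs in this window. No match overlapped another. CAGCTG was present in 39 of the promoters of the 100 genes with the largest folds in muscle that had a promoter in the table, in 11 of those of the 100 largest in liver, and in 14.8% of 7943 tested genes with a promoter in the table (16.1% of all 27025 promoters). The MEF2 box was present in 10 and 1 of them, against 0.692% of tested genes and 0.566% of all promoters. GTTAAT was present in 4 and 21 of them, against 4.48% and 7.2%. The CArG box was present in 5 and 3 of them, against 1.47% and 1.57%, and the TATA box in 26 and 26, against 7.79% and 14.2%. A match is a description of these letters and was not tested as a binding site.

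Genes of the contractile apparatus made up the largest nuclear-encoded class of muscle. All 52 tested members out of 53 listed were higher in muscle, with a median log2 fold change of 11.19, beside the background of 24.7% of tested genes and the median of -0.18. The class took 12.6% to 24.3% of counts in muscle (median 22.1%) and 0.017% to 0.0345% in liver (median 0.0231%), a ratio of medians of 958, and its lowest muscle library was CTL muscle 2. Acta1, the thin filament actin (ENSMUSG00000031972.5, chr8:123891769-123894751), measured 17244 to 44614 CPM in muscle (median 37969) and 0.425 to 17.4 CPM in liver (median 2.61) (log2 fold change 12.57, SE 1.11, adjusted p = 7.89e-08, and 13.43 without CTL liver 5). The fast IIb myosin heavy chain Myh4 measured 14420.1 to 47182 CPM in muscle (median 29731) and 0.142 to 8.38 CPM in liver (median 3.21) (log2 fold change 13.16, SE 1.08, adjusted p = 3.78e-08, and 13.86 without CTL liver 5). No muscle library of either gene came near the liver range. Nebulin (Neb), the ruler of the thin filament, stood out in liver at 27.8 to 131 CPM, above the liver median of 2.61 CPM for Acta1, and measured 2082 to 7224 CPM in muscle (log2 fold change 6.46, SE 0.56, adjusted p = 6.66e-08).

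Fast fibre genes dominated the muscle libraries, and slow fibre genes varied widely between them. The 12 fast fibre markers took 7.96% to 15.7% of counts in muscle (median 12%) and 0.000156% to 0.00289% in liver (median 0.00182%). The 11 slow fibre markers took 0.0536% to 1.75% of counts in muscle (median 0.135%) and 0.0151% to 0.0207% in liver (median 0.018%), and most of their liver counts were those of Atp2a2 and Tpm3, which other cells also use. Among myosins, Myh2 of IIa fibres had a median of 1723 against 0.155 CPM and Myh1 of IIx fibres 336 against 0 CPM. The slow myosin Myh7 measured 17.6 to 1304 CPM in muscle (median 129) and 0 to 0.519 CPM in liver (median 0) (2 counts in all liver libraries, ratio of pooled CPM 8099.9, counting interval 2242 to 66891, adjusted p = 2.77e-06). Its muscle libraries thus spanned a wider range than those of Myh4, while none overlapped liver. How much soleus each muscle sample contained is not given in the sources used here.

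All 24 tested members of the calcium and excitation list were higher in muscle (median log2 fold change 10.33, and 9.60 with the 5 genes at 0 in liver set to their bound). Parvalbumin (Pvalb), the calcium buffer of fast fibres, measured 8825 to 19587 CPM in muscle (median 15107) and 0 to 3.73 CPM in liver (median 0.637) (log2 fold change 13.54, SE 1.03, adjusted p = 1.71e-08, and 14.51 without CTL liver 5). The sarcoplasmic calcium pump Atp2a1 measured 6679 to 13748 CPM in muscle (median 11136) and 0 to 3.11 CPM in liver (median 2.05) (log2 fold change 12.62, SE 0.96, adjusted p = 1.54e-08). Its paralog Atp2a2, the pump of slow fibres and of the endoplasmic reticulum in other cells, was closer between the tissues (160.3 against 129 CPM, log2 fold change 1.97, SE 0.68, adjusted p = 0.0215, not called without CTL muscle 4 (1.40)). Atp2a1 made up 88.1% to 99.5% in muscle (median 98.5%) and 0% to 2.21% in liver (median 1.77%) of the counts of this pair. Its log2 ratio to Atp2a2 was 2.89 and 2.92 in CTL muscle 4 and 5, and 5.93 to 7.70 in the rest of muscle. CTL muscle 4 and 5 also had the highest shares of slow fibre markers, 0.859% and 1.75%. The fitted fold of Atp2a2 is thus larger than the difference of its medians.

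Genes were ranked by fitted folds, which rest on the prior count of the fit where a tissue has few counts, so the bounds given for such genes do not order them. Of the 10 largest fitted folds in muscle, 5 were of genes with at most 3 counts over all liver libraries. Mybpc2, fast myosin-binding protein C, measured 857 to 2736 CPM in muscle (median 2275) and 0 to 0.431 CPM in liver (median 0) (2 counts in all liver libraries, ratio of pooled CPM 28295, counting interval 7832 to 233650.4, adjusted p = 5.22e-10). Mylk2, the skeletal myosin light chain kinase, had no count in any liver library, at least 5059-fold higher in muscle, adjusted p = 3.04e-09, and Klhl31, a muscle Kelch protein, had no count in any liver library, at least 4447-fold higher in muscle, adjusted p = 6.24e-09. Cmya5 of the Z-disc had 1 count in all liver libraries, ratio of pooled CPM 32423, counting interval 5819 to 1280681, adjusted p = 2.27e-10, and Jsrp1 of the sarcoplasmic reticulum had no count in any liver library, at least 3199-fold higher in muscle, adjusted p = 1.43e-08. The other members of this group were Actn3 (log2 fold change 13.67, and 14.40 without CTL liver 6), Ckm (13.63, and 14.23 without CTL liver 2), Myl1 (13.62), Pvalb (13.54, and 14.51 without CTL liver 5) and Myoz1 (13.42, and 14.93 without CTL liver 5). Myl1, whose locus carries the Cre of the study, had a median of 11955 against 0.81 CPM. The 10 largest fitted folds in liver included the steroid dehydrogenase Hsd3b3 (1 count in all muscle libraries, ratio of pooled CPM 17400.4, counting interval 3123 to 687308, adjusted p = 6.95e-09) and the complement component C8a (1 count in all muscle libraries, ratio of pooled CPM 10695, counting interval 1919 to 422478, adjusted p = 3.02e-08). They also included the asialoglycoprotein receptor Asgr2 (no count in any muscle library, at least 1237-fold higher in liver, adjusted p = 2.55e-08), the hepcidin-regulating protease Tmprss6 (no count in any muscle library, at least 1064-fold higher in liver, adjusted p = 1.73e-08) and protein Z of coagulation, Proz (no count in any muscle library, at least 825-fold higher in liver, adjusted p = 6.96e-09). The rest were Serpina10 (at least 971-fold), Ugt2b35 (at least 1435-fold), Kng2 (at least 995-fold), Mug2 (ratio 9085, counting interval 1630.2 to 358853) and Gstm3 (at least 1032-fold). Several of these belong to families of near-identical copies (Hsd3b, Ugt2b, Mug, Kng and Gstm), whose reads the counting may have split.

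The functional classes divided by tissue. Of 40 classes, 12 took a larger share of counts in every muscle library than in every liver library, 21 a larger share in every liver library, and 7 overlapped. These shares are a description of counts without scaling between libraries, and a class can change its share because another class grows. Some genes, such as Ahsg, Igf1 and Sdha, are members of several classes, so the classes are not independent of each other.

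**Figure D3:**
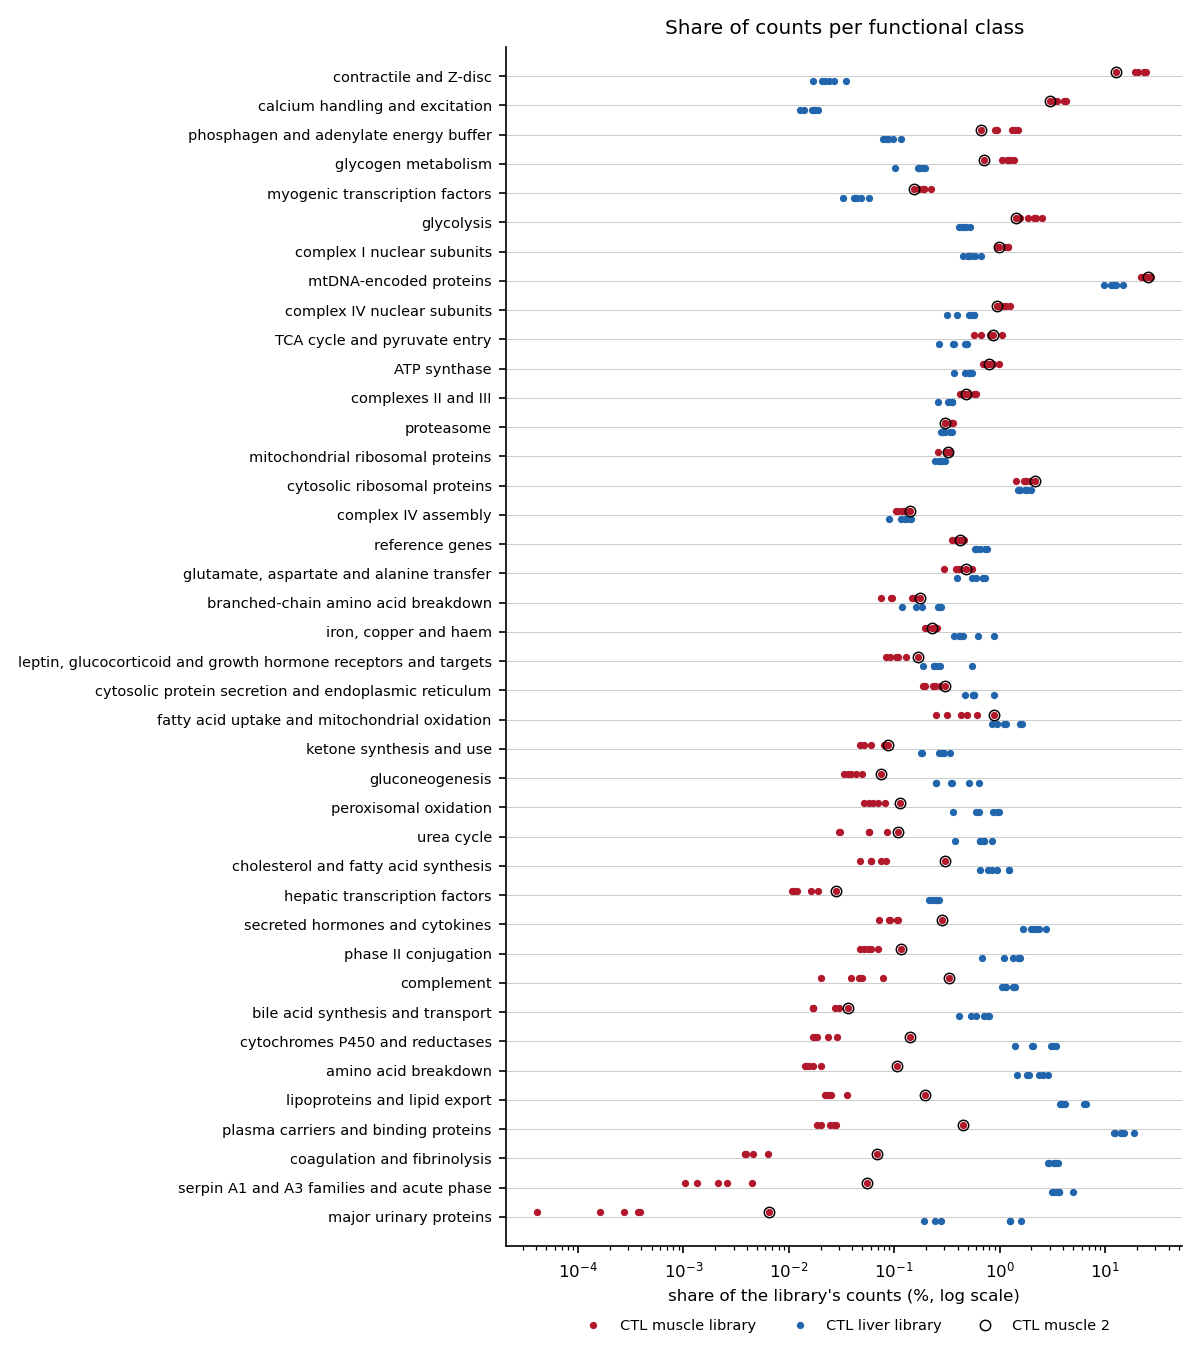
Each row is 1 of 40 functional classes and each point 1 library, with the class's share of the library's counts in percent on a log x axis, red for CTL muscle and blue for CTL liver. Contractile genes (median 22.1% against 0.0231%) and plasma proteins lie at opposite ends, proteasome and ribosomal protein classes overlap in the middle, and CTL muscle 2, ringed, is the rightmost muscle point of most liver classes.

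Genes of the phosphagen and adenylate buffer, which restores ATP during contraction, had members higher in either tissue. Of 16 tested members, 10 were higher in muscle and 6 higher in liver, beside 24.7% and 33.7% of all tested genes. The share higher in liver was thus near the background. Muscle creatine kinase (Ckm) measured 2608 to 13125 CPM in muscle (median 6453) and 0 to 1.51 CPM in liver (median 0.56) (log2 fold change 13.63, SE 0.87, adjusted p = 2.74e-09, and 14.23 without CTL liver 2). Myoglobin (Mb), the oxygen store of muscle, measured 412 to 2864 CPM in muscle (median 1163) and 0 to 2.33 CPM in liver (median 0.401) (log2 fold change 10.43, SE 0.87, adjusted p = 4.13e-08, and 11.10 without CTL liver 6). The mitochondrial creatine kinase Ckmt2 (552 against 0.0354 CPM, log2 fold change 10.90, SE 0.70, adjusted p = 3.04e-09, and 12.50 without CTL liver 5) went the same way. Gamt, which makes the creatine that muscle takes up, was higher in liver (17.7 against 408 CPM, log2 fold change -4.34, SE 0.28, adjusted p = 3.27e-09). AMP deaminase was read from Ampd1 in muscle (987 against 0.0709 CPM), and Ampd1 made up 99.8% and 0.372% (medians of muscle and liver) of the counts of Ampd1 and Ampd2, with as few as 2 counts of the pair in 1 liver library. Adenylate kinase Ak1 was higher in muscle (682 against 0.13 CPM, 3 counts in all liver libraries, ratio of pooled CPM 6567, counting interval 2247 to 31848, adjusted p = 3.88e-10).

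Glycolysis took 1.44% to 2.5% of counts in muscle (median 1.98%) and 0.416% to 0.528% in liver (median 0.453%). Of 23 tested genes, 15 were higher in muscle and 6 in liver, and the latter included Pklr, Pfkl, Aldoc and Eno1. Aldolase A (Aldoa) measured 3737 to 11417 CPM in muscle (median 8551) and 45.6 to 71.2 CPM in liver (median 60) (log2 fold change 7.15, SE 0.48, adjusted p = 4.41e-09). Hexokinase 2 (Hk2), the insulin-responsive form, measured 94.5 to 468 CPM in muscle (median 199.9) and 0.259 to 8.61 CPM in liver (median 0.719) (log2 fold change 6.42, SE 0.80, adjusted p = 3.65e-06, and 7.20 without CTL liver 3). In both Aldoa and Hk2 the tissues did not overlap. Phosphofructokinase was Pfkm in muscle (761 against 3.23 CPM, log2 fold change 7.90, SE 0.39, adjusted p = 3.49e-10) and less clearly Pfkl in liver (9.57 against 27.1 CPM, log2 fold change -1.50, SE 0.31, adjusted p = 0.00056). Pyruvate kinase was Pkm in muscle (1344 against 9.52 CPM) and Pklr in liver (0 against 100.2 CPM, 3 counts in all muscle libraries, ratio of pooled CPM 941, counting interval 322 to 4565, adjusted p = 3.13e-08). Enolase Eno3 was higher in muscle (3789 against 5.97 CPM, log2 fold change 9.26, SE 0.50, adjusted p = 6.74e-10), and liver held little of either form (Eno1 3.18 against 9.25 CPM). Lactate dehydrogenase did not follow this pattern, since both Ldha (1225 against 371 CPM, log2 fold change 1.78, SE 0.30, adjusted p = 7.84e-05) and Ldhb (89.5 against 1.95 CPM, log2 fold change 6.35, SE 0.62, adjusted p = 2.66e-07) were higher in muscle. Ldha held most counts of the pair in both tissues. Reads of Gapdh, Eno1 and Pgam1 may have been lost to near-identical pseudogenes, and the pair of Pgam2 and Pgam1 held as few as 2 counts in 1 liver library.

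Glycogen genes took 0.704% to 1.37% of counts in muscle (median 1.2%) and 0.102% to 0.197% in liver (median 0.173%). Of 22 tested members, 14 were higher in muscle and 7 in liver. Glycogen phosphorylase, which frees glucose 1-phosphate, was read from Pygm in muscle and Pygl in liver. Pygm measured 2355 to 9478 CPM in muscle (median 6629) and 0.921 to 4.97 CPM in liver (median 1.9) (log2 fold change 11.47, SE 0.69, adjusted p = 1.51e-09). Pygl measured 179 to 545 CPM in liver (median 477), 27.2 CPM in CTL muscle 2 and 0.955 to 4.45 CPM in the other 5 muscle libraries (log2 fold change -6.38, SE 0.65, adjusted p = 4.3e-07, and -7.00 without CTL muscle 2). Pygm made up 98.9% to 100% in muscle (median 99.9%) and 0.171% to 1.39% in liver (median 0.488%) of the pair, so that the ratio turned over between the tissues in every library. Glycogen synthase divided in the same way into Gys1 (352 against 3.97 CPM) and Gys2 (0.397 against 73.5 CPM), with Gys1 at 99.9% and 6.73% of the pair in muscle and liver. The subunits that bring protein phosphatase 1 to glycogen divided into Ppp1r3a (73.1 against 0 CPM, 1 count in all liver libraries, ratio of pooled CPM 2142, counting interval 384 to 84654, adjusted p = 6.72e-10) and Ppp1r3b (1.07 against 169 CPM, log2 fold change -7.01, SE 0.69, adjusted p = 2.57e-07, and -7.49 without CTL muscle 2).

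Glucose release belonged to liver. Of 14 tested gluconeogenesis genes, 11 were higher in liver, beside a background of 33.7% of tested genes, and 2 in muscle (median log2 fold change -2.65, -3.27 without CTL muscle 2). Glucose 6-phosphatase (G6pc), which lets glucose leave the cell, measured 72.7 to 878 CPM in liver (median 261), 22.4 CPM in CTL muscle 2 and 0 to 0.604 CPM in the other 5 muscle libraries (log2 fold change -7.82, SE 1.14, adjusted p = 1.99e-05, and -9.81 without CTL muscle 2). Phosphoenolpyruvate carboxykinase Pck1 measured 318 to 4098 CPM in liver (median 1064), 181 CPM in CTL muscle 2 and 0.955 to 12.8 CPM in the other 5 muscle libraries (log2 fold change -5.68, SE 1.19, adjusted p = 0.000654, and -8.01 without CTL muscle 2). For both genes the level in CTL muscle 2 was more than 10 times that of any other muscle library. Its mitochondrial paralog Pck2 did not pass the test (3.98 against 2.79 CPM, log2 fold change 0.18, SE 0.42, adjusted p = 0.736). The genes higher in muscle were Fbp2, muscle fructose bisphosphatase (35 against 0 CPM, log2 fold change 6.62, SE 0.74, adjusted p = 1.08e-06, and 8.19 without CTL liver 5), and the coactivator Ppargc1a (31.8 against 9.78 CPM, log2 fold change 1.92, SE 0.39, adjusted p = 0.000524). Glucose transport was read from Slc2a4, the insulin-regulated GLUT4, in muscle, and from Slc2a2, GLUT2, in liver. Slc2a4 measured 127 to 329.9 CPM in muscle (median 272) and 0.0709 to 1.03 CPM in liver (median 0.404) (log2 fold change 9.49, SE 0.47, adjusted p = 3.49e-10), and Slc2a2 measured 116 to 371 CPM in liver (median 256), 3.2 CPM in CTL muscle 2 and 0 to 0.242 CPM in the other 5 muscle libraries (log2 fold change -10.07, SE 0.66, adjusted p = 3.76e-09, and -10.85 without CTL muscle 2). Slc2a4 made up 97.5% to 100% in muscle (median 100%) and 0.0259% to 0.43% in liver (median 0.187%) of the pair.

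Oxidative phosphorylation genes were higher in muscle by small factors. Proteins encoded in mtDNA took 21.8% to 27.5% of counts in muscle (median 24.3%) and 9.86% to 14.8% in liver (median 12.2%). Only 6 of the 13 such genes passed the filter on low counts, and 3 had no count in any library. The nuclear-encoded cytochrome c oxidase subunit Cox4i1, which nearly every cell uses, was also listed at 0 in every library, so a 0 in these tables is not the absence of a transcript. Of the 6, mt-Nd1, mt-Nd2, mt-Nd5 and mt-Co1 were higher in muscle, and mt-Nd4 and mt-Cytb did not pass the test. Cytochrome c oxidase subunit 1 (mt-Co1) measured 1797 to 3919 CPM in muscle (median 2628) and 741 to 1152 CPM in liver (median 951) (log2 fold change 1.53, SE 0.30, adjusted p = 0.000382). The most abundant, mt-Nd4, measured 78303 to 163179 CPM in muscle (median 119633) and 58184 to 79524 CPM in liver (median 66949), and its difference did not pass the test (log2 fold change 0.83, SE 0.55, adjusted p = 0.209, but called without CTL muscle 2 (1.06)). Of nuclear-encoded subunits, 24 of 35 tested in complex I, 7 of 13 in complexes II and III and 9 of 14 in ATP synthase were higher in muscle, and none of them was called higher in liver, beside 24.7% and 33.7% of all tested genes. The median log2 fold changes were 0.86, 0.59 and 0.77, against -0.18 over all tested genes. Examples were Ndufb5 of complex I (837 against 213 CPM, log2 fold change 1.80, SE 0.29, adjusted p = 5.49e-05) and Uqcrc1 of complex III (log2 fold change 1.29, SE 0.31, adjusted p = 0.00212).

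Cytochrome c oxidase, the enzyme that COX10 helps to build, differed between the tissues mainly in the identity of its subunits. Of 14 tested nuclear-encoded subunits, 6 were higher in muscle, 2 in liver and 6 did not pass the test. The heart and muscle isoform Cox6a2 measured 1174 to 4377 CPM in muscle (median 3370.4) and 0 to 3.42 CPM in liver (median 0.95) (log2 fold change 11.37, SE 0.75, adjusted p = 3.94e-09, and 12.17 without CTL liver 5). Its paralog Cox6a1 measured 40.6 to 175 CPM in muscle (median 76.1) and 599.6 to 1049 CPM in liver (median 932) (log2 fold change -3.31, SE 0.37, adjusted p = 1.07e-06). Cox6a2 thus made up 87.1% to 99% in muscle (median 97.6%) and 0% to 0.331% in liver (median 0.129%) of the pair. Cox8b measured 312 to 801 CPM in muscle (median 517) and 0 to 0.861 CPM in liver (median 0.259) (log2 fold change 10.84, SE 0.65, adjusted p = 1.66e-09), and Cox8a measured 28 to 81.7 CPM in muscle (median 48.3) and 217 to 512 CPM in liver (median 252) (log2 fold change -2.50, SE 0.32, adjusted p = 4.58e-06). The promoters of this pair are those printed above. The subunit 7A pair behaved differently. Cox7a1 measured 365 to 756 CPM in muscle (median 512) and 1.04 to 4.97 CPM in liver (median 3.5) (log2 fold change 7.40, SE 0.40, adjusted p = 6.67e-10), while Cox7a2 measured 288 to 725 CPM in muscle (median 525) and 319 to 697 CPM in liver (median 537) (log2 fold change -0.06, SE 0.29, adjusted p = 0.883), overlapping throughout. Muscle libraries thus held both forms in about equal number, with Cox7a1 at 48% to 55.9% in muscle (median 51.9%) and 0.208% to 0.855% in liver (median 0.639%) of the pair. Among subunits without such a pair, Cox5a (819 against 393 CPM, log2 fold change 1.27, SE 0.29, adjusted p = 0.00123), Cox5b (378 against 176 CPM, log2 fold change 0.87, SE 0.26, adjusted p = 0.0103) and Cox6c (1227 against 797 CPM, log2 fold change 0.80, SE 0.29, adjusted p = 0.0295, not called without CTL muscle 4 (0.63)) were higher in muscle. Cox6b1 (0.42, but called without CTL muscle 2 (0.66)), Cox7b (0.75, a call that changed in 5 of 12 fits that each left out 1 library), Cox7c (0.58), Cox7a2l (0.12) and Ndufa4 (0.33) had log2 fold changes that did not pass the test. Cox4i1, Cox4i2 and Cox6b2 did not pass the filter on low counts.

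**Figure D4:**
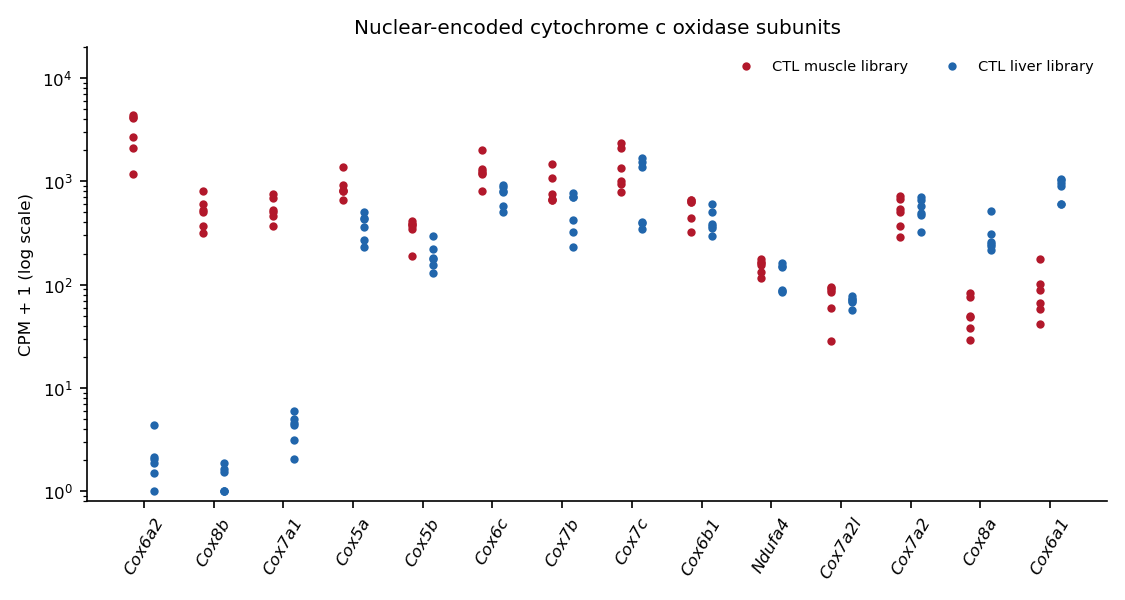
Each point is 1 library, with the CPM plus 1 of a nuclear-encoded cytochrome c oxidase subunit on a log y axis, red for CTL muscle and blue for CTL liver, for the 14 tested subunits. Cox6a2, Cox8b and Cox7a1 lie at 312 CPM or more in every muscle library and at 4.97 or less in every liver library, Cox8a and Cox6a1 are higher in liver, and the other 9 have log2 fold changes between -0.06 and 1.27.

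The assembly factors of the enzyme were called in either direction. Of 19 tested, 3 were higher in muscle, 5 in liver and 11 did not pass the test, shares below the 24.7% and 33.7% of all tested genes, and the class shares overlapped. Cox10 itself, the farnesyltransferase of haem a synthesis, measured 41.6 to 131 CPM in muscle (median 114) and 30.1 to 49.5 CPM in liver (median 31.6) (log2 fold change 1.48, SE 0.28, adjusted p = 0.000248). Its muscle range overlapped liver through CTL muscle 2, at 41.6 CPM. Cox14 was also higher in muscle (159 against 50.4 CPM, log2 fold change 1.63, SE 0.21, adjusted p = 5.74e-06), and the copper chaperone Sco2 was higher in liver (4.67 against 50.1 CPM, log2 fold change -3.05, SE 0.42, adjusted p = 1.21e-05).

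The carriers that link mitochondria to the cytosol also divided by paralog. The adenine nucleotide translocator was Slc25a4 in muscle (4473 against 10.6 CPM, log2 fold change 8.77, SE 0.47, adjusted p = 6.05e-10) and Slc25a5 in liver (25.2 against 246 CPM, log2 fold change -3.22, SE 0.37, adjusted p = 1.64e-06), with Slc25a4 at 98.7% to 99.7% in muscle (median 99.5%) and 1.72% to 7.17% in liver (median 4.93%) of the pair. The tricarboxylic acid cycle list had 16 of 30 tested members higher in muscle and 3 in liver, beside 24.7% and 33.7% of all tested genes, with a median log2 fold change of 0.89. Malate dehydrogenase Mdh2 (679 against 178 CPM, log2 fold change 1.77, SE 0.26, adjusted p = 1.94e-05) was among the former. Cytosolic aconitase Aco1 (5.53 against 85.6 CPM, log2 fold change -3.57, SE 0.56, adjusted p = 4.16e-05), the phosphatase Pdp2 (log2 fold change -2.59) and the GTP-forming ligase subunit Suclg2 (-1.99) were the 3 higher in liver.

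Fatty acid genes had members higher in either tissue. Of 34 tested members of uptake and mitochondrial oxidation, 7 were higher in muscle, 19 in liver and 8 did not pass the test, beside 24.7% and 33.7% of all tested genes higher in muscle and liver, so that the share higher in muscle was near the background. Binding of fatty acids in the cytosol was read from Fabp3 in muscle and Fabp1 in liver. Fabp3 measured 172 to 901 CPM in muscle (median 458) and 0 to 2.17 CPM in liver (median 0.106) (log2 fold change 9.34, SE 0.85, adjusted p = 1.05e-07, and 10.11 without CTL liver 6), and Fabp1 measured 2653 to 10897 CPM in liver (median 5911), 184 CPM in CTL muscle 2 and 0.786 to 5.73 CPM in the other 5 muscle libraries (log2 fold change -7.74, SE 1.36, adjusted p = 0.000132, and -10.76 without CTL muscle 2). Lipoprotein lipase Lpl, which frees fatty acids at the vessel wall, was higher in muscle (945 against 37.9 CPM, log2 fold change 4.62, SE 0.38, adjusted p = 3.59e-08), and hepatic lipase Lipc was higher in liver (0 against 149 CPM, log2 fold change -9.90, SE 0.64, adjusted p = 3.48e-09, and -10.54 without CTL muscle 2). Fabp4, an adipocyte protein, was higher in muscle (432 against 15.2 CPM, log2 fold change 5.48, SE 0.71, adjusted p = 5.37e-06, and 4.66 without CTL muscle 2), and adipocyte markers varied between muscle libraries, at 0.138% to 1.1% of counts in muscle (median 0.322%) and 0.164% to 0.406% in liver (median 0.28%), highest in CTL muscle 2. Of the 12 adipocyte markers, 4 had no count in any liver library, and Fabp4 made up little of the liver share. That share thus rests on other members of the list and is not read as a content of adipocytes. Entry into mitochondria through carnitine palmitoyltransferase 1 could be read only for Cpt1a, which was higher in liver (5.75 against 161 CPM, log2 fold change -4.71, SE 0.41, adjusted p = 6.61e-08), because Cpt1b was listed at 0 in all 12 libraries. The long-chain dehydrogenases Acadl (log2 fold change -0.24) and Acadvl (-0.52) of the oxidation spiral did not pass the test. Peroxisomal oxidation was a liver class, with 13 of 17 tested members higher in liver and 0 in muscle (median log2 fold change -3.38). Catalase (Cat), which breaks down hydrogen peroxide, had a median of 81.8 against 1920.3 CPM (log2 fold change -4.59, SE 0.38, adjusted p = 3.5e-08).

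Ketone genes were mostly higher in liver. Oxct1, which activates ketone bodies for oxidation, measured 199 to 461 CPM in muscle (median 299) and 6.23 to 15.1 CPM in liver (median 8.3) (log2 fold change 5.18, SE 0.33, adjusted p = 3.17e-09) and was the only 1 of 10 tested members of the list called higher in muscle. Of the others, 8 were higher in liver and 1, the transporter Slc16a1, did not pass the test.

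Genes of nitrogen disposal were higher in liver throughout. All 12 tested members of the urea cycle list were higher in liver (median log2 fold change -7.33, -8.10 without CTL muscle 2). Carbamoyl phosphate synthetase (Cps1), its entry enzyme, measured 199 to 1631 CPM in liver (median 955), 19.2 CPM in CTL muscle 2 and 0 to 1.2 CPM in the other 5 muscle libraries (log2 fold change -8.87, SE 1.05, adjusted p = 1.97e-06, and -10.16 without CTL muscle 2). Otc and Ass1 had log2 fold changes of -9.50 and -8.98, and that of Arg1 was -7.57, and -9.58 without CTL muscle 2. All 35 tested genes of amino acid breakdown were also higher in liver. The list took 0.0143% to 0.106% of counts in muscle (median 0.0163%) and 1.48% to 2.9% in liver (median 2.13%), and the highest muscle value was that of CTL muscle 2. Gnmt, which uses up methyl groups from methionine, had a median of 4.88 against 3272 CPM (log2 fold change -9.01, SE 0.81, adjusted p = 9.98e-08, and -9.51 without CTL muscle 2). Methionine adenosyltransferase was Mat1a in liver (1.03 against 2552 CPM, log2 fold change -8.04, SE 1.43, adjusted p = 0.00015, and -11.03 without CTL muscle 2) and Mat2a in muscle (179.8 against 86.3 CPM, log2 fold change 1.01, SE 0.24, adjusted p = 0.00185), with Mat2a at 99.3% and 3.41% of the pair. Branched-chain amino acids, which muscle transaminates, were less one-sided: 14 of 20 tested genes were higher in liver, and 2 in muscle, namely the transaminase Bcat2 (17.4 against 7.46 CPM, log2 fold change 1.08, SE 0.27, adjusted p = 0.00306) and the kinase Bckdk, which inhibits the next step (71.9 against 6.52 CPM, log2 fold change 3.35, SE 0.33, adjusted p = 2.95e-07).

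Genes that move amino groups between glutamate, aspartate and alanine had members higher in either tissue. Of 15 tested, 5 were higher in muscle, 7 in liver and 3 did not pass the test, beside 24.7% and 33.7% of all tested genes, and the class shares overlapped. These shares lie near the background, and the values of single members follow. The aspartate-glutamate carrier was Slc25a12 in muscle and Slc25a13 in liver. Slc25a12 measured 519 to 880.2 CPM in muscle (median 771) and 32.2 to 52.6 CPM in liver (median 39.7) (log2 fold change 4.12, SE 0.27, adjusted p = 3.52e-09), and Slc25a13 measured 0.393 to 6.41 CPM in muscle (median 1.16) and 142 to 240.0 CPM in liver (median 185) (log2 fold change -7.10, SE 0.46, adjusted p = 3.57e-09, and -7.28 without CTL muscle 2). The liver glutaminase Gls2 was higher in liver (0.518 against 398 CPM, log2 fold change -9.67, SE 0.77, adjusted p = 2.58e-08, and -9.98 without CTL muscle 2). Glutamine synthetase (Glul) measured 197 to 686 CPM in muscle (median 348) and 1429 to 2259 CPM in liver (median 1784) (log2 fold change -2.25, SE 0.35, adjusted p = 4.36e-05), and glutamate dehydrogenase (Glud1) had a median of 134 against 1460.1 CPM (log2 fold change -3.14, SE 0.38, adjusted p = 2.49e-06). Part of the malate-aspartate shuttle was close between the tissues: Got1 (430.5 against 545 CPM, -0.15), Got2 (373 against 572 CPM, -0.33) and Mdh1 (505 against 748 CPM, -0.21) had log2 fold changes that did not pass the test, while Mdh2, Ogdh (339 against 84.3 CPM, log2 fold change 2.00, SE 0.22, adjusted p = 1.19e-06) and the oxoglutarate carrier Slc25a11 (158 against 66.8 CPM, log2 fold change 1.31, SE 0.22, adjusted p = 6.88e-05) were higher in muscle. Both alanine aminotransferases were called higher in liver, Gpt with a median of 12.5 against 115 CPM (log2 fold change -3.37, SE 0.35, adjusted p = 4.66e-07) and Gpt2 with 181 against 254 CPM (log2 fold change -0.77, SE 0.30, adjusted p = 0.038, a call that changed in 10 of 12 fits that each left out 1 library). Without CTL muscle 2 the log2 fold change of Gpt2 was -0.53. The glutamate carrier Slc25a22 was higher in liver (9.34 against 137 CPM, log2 fold change -3.75, SE 0.98, adjusted p = 0.00386), and Asns did not pass the filter on low counts (1.45 against 2.07 CPM).

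Secreted plasma proteins made up the largest nuclear-encoded classes of liver. Carriers and binding proteins took 0.0187% to 0.446% of counts in muscle (median 0.0257%) and 12.2% to 19% in liver (median 14.2%), and lipoprotein genes took 0.0219% to 0.197% of counts in muscle (median 0.0249%) and 3.74% to 6.55% in liver (median 4.01%). All 21, 22 and 24 tested genes of the lists on carriers, lipoproteins and coagulation were higher in liver, with median log2 fold changes of -8.15, -8.91 and -9.60, the last -9.58 with its genes at 0 in muscle set to their bound (or -10.00, -10.04 and -10.49 without CTL muscle 2). Alb (ENSMUSG00000029368.10, chr5:90460897-90476602) measured 48292 to 111806 CPM in liver (median 84474), 1430.3 CPM in CTL muscle 2 and 16.7 to 87.4 CPM in the other 5 muscle libraries (log2 fold change -8.24, SE 1.39, adjusted p = 8.53e-05, and -10.84 without CTL muscle 2). Apoe, the apolipoprotein that binds lipoprotein receptors, measured 17631 to 34940.0 CPM in liver (median 22956), 834 CPM in CTL muscle 2 and 125 to 256 CPM in the other 5 muscle libraries (log2 fold change -6.52, SE 0.69, adjusted p = 6.34e-07, and -7.12 without CTL muscle 2). Muscle libraries other than CTL muscle 2 thus held more Apoe than Alb in spite of the opposite order in liver. Transthyretin (Ttr), which carries thyroid hormone, measured 3367 to 29324 CPM in liver (median 20328), 298 CPM in CTL muscle 2 and 3.61 to 38.2 CPM in the other 5 muscle libraries (log2 fold change -8.25, SE 1.21, adjusted p = 2.1e-05, and -10.00 without CTL muscle 2). Of complement genes, 20 of 21 tested were higher in liver, and the only 1 higher in muscle was Cfd (adipsin, made by adipocytes), with a median of 102 against 0.344 CPM and 1649.8 CPM in CTL muscle 2 (log2 fold change 10.18, and 8.94 without CTL muscle 2). Serpins and acute phase genes took 0.00104% to 0.0548% of counts in muscle (median 0.00235%) and 3.16% to 4.97% in liver (median 3.57%), and 23 of 24 tested were higher in liver.

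Some liver genes were called against muscle in spite of a wide spread between liver libraries. All 8 tested major urinary proteins, which carry pheromones, were higher in liver, and the list took 4.1e-05% to 0.00644% of counts in muscle (median 0.000324%) and 0.193% to 1.59% in liver (median 0.762%). The liver values fell into 2 groups, at 1.24% to 1.59% in CTL liver 1, 5 and 6, which held Y-linked transcripts, and at 0.193% to 0.28% in CTL liver 2, 3 and 4, so that the liver median describes neither. The same division is that by Malat1 above, and the 2 cannot be told apart in liver. Mup20 measured 0 to 1.6 CPM in muscle (median 0.106) and 4.74 to 2489 CPM in liver (median 819) (log2 fold change -10.94, SE 1.80, adjusted p = 6.78e-05, and -12.35 without CTL muscle 4, and -10.75 without CTL muscle 2 and CTL liver 1 and 4), and the protease inhibitor Serpina1e measured 0.212 to 3.2 CPM in muscle (median 1.94) and 182 to 9375 CPM in liver (median 4459) (log2 fold change -11.40, SE 1.23, adjusted p = 7.41e-07, and -11.30 without the same 3 libraries). Both families consist of near-identical genes, and the division of their counts among members is uncertain. Both are also known for levels that depend on sex in mouse liver, and the labelled sex of 2 liver libraries went against their transcripts.

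Bile acid, lipid synthesis and detoxification genes were liver classes with almost no exception. All 20 tested bile acid genes were higher in liver, including Cyp7a1, the rate-limiting enzyme of synthesis (0 against 117 CPM, 1 count in all muscle libraries, ratio of pooled CPM 2420.4, counting interval 434 to 95628, adjusted p = 1.49e-09), and Cyp8b1, which sets the proportion of cholic acid (0.62 against 746 CPM, log2 fold change -8.52, SE 1.07, adjusted p = 3.9e-06, and -10.30 without CTL muscle 2). The phospholipid exporter Abcb4 was close to the threshold (log2 fold change -0.76, SE 0.31, adjusted p = 0.0477, a call that changed in 9 of 12 fits that each left out 1 library), and its log2 fold change was -0.51 without CTL muscle 2. Cholesterol and fatty acid synthesis had 31 of 33 tested members higher in liver and none higher in muscle. The desaturase Scd1 measured 99.5 to 4648 CPM in liver (median 2144), 886 CPM in CTL muscle 2 and 21 to 100.4 CPM in the other 5 muscle libraries (log2 fold change -3.36, SE 0.96, adjusted p = 0.00687, and -4.85 without CTL muscle 2). The liver range of Scd1 was wide, and it overlapped muscle with or without CTL muscle 2. Cytochromes P450 and their reductases took 0.0169% to 0.143% of counts in muscle (median 0.0209%) and 1.41% to 3.43% in liver (median 2.56%), and 43 of 44 tested were higher in liver. Cyp3a11, which oxidises many drugs, measured 95.2 to 6003 CPM in liver (median 2677), 49.7 CPM in CTL muscle 2 and 0 to 1.93 CPM in the other 5 muscle libraries (log2 fold change -8.90, SE 1.60, adjusted p = 0.000164, and -11.21 without CTL muscle 2), and Cyp2e1, which oxidises ethanol, measured 193 to 4540.4 CPM in liver (median 2023), 56.1 CPM in CTL muscle 2 and 1.91 to 8.34 CPM in the other 5 muscle libraries (log2 fold change -7.51, SE 1.03, adjusted p = 1.07e-05, and -8.47 without CTL muscle 2). Of phase II enzymes, 31 of 32 tested were higher in liver, and 1, the glutathione transferase Gstm5, in muscle (43 against 9.78 CPM, log2 fold change 2.26, SE 0.31, adjusted p = 1.22e-05).

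Regulators of tissue identity followed the same division at lower levels. Of 19 tested hepatic transcription factors, 16 were higher in liver and 1 in muscle. Hnf4a, a nuclear receptor central to hepatocytes, measured 289.8 to 679 CPM in liver (median 412), 17.6 CPM in CTL muscle 2 and 0 to 0.478 CPM in the other 5 muscle libraries (log2 fold change -8.72, SE 1.05, adjusted p = 2.42e-06, and -10.89 without CTL muscle 2). Of 18 tested myogenic factors, 15 were higher in muscle, 1 (Prox1) was higher in liver (7.3 against 228 CPM, log2 fold change -4.14, SE 0.58, adjusted p = 1.28e-05) and 2 did not pass the test. Mef2c, which binds the MEF2 box, measured 202 to 1047 CPM in muscle (median 561) and 2.06 to 12.1 CPM in liver (median 4.94) (log2 fold change 6.77, SE 0.56, adjusted p = 3.86e-08). The myogenic factor Myod1 was read in muscle alone (8.68 against 0 CPM, no count in any liver library, at least 84.4-fold higher in muscle, adjusted p = 7.71e-07), and Myf6 had a median of 32.1 against 0 CPM (1 count in all liver libraries, ratio of pooled CPM 1137, counting interval 204 to 44974, adjusted p = 2.66e-08).

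Genes of iron handling, of secreted signals and of their receptors were read as 3 lists. Iron, copper and haem genes were higher in liver in 12 of 19 tested and in muscle in 3, which were Cox10, the transferrin receptor Tfrc and Hfe2 (455 against 71.2 CPM, log2 fold change 2.76, SE 0.31, adjusted p = 9.79e-07). Of 23 tested genes of secreted hormones and cytokines, 15 were higher in liver and 5 in muscle. Insulin-like growth factor 1 (Igf1) measured 758 to 2131 CPM in liver (median 1712), 86.5 CPM in CTL muscle 2 and 26.7 to 33.4 CPM in the other 5 muscle libraries (log2 fold change -5.37, SE 0.43, adjusted p = 2.63e-08, and -5.58 without CTL muscle 2). Hepcidin (Hamp), the iron hormone, had a median of 0.518 against 917 CPM (log2 fold change -10.02, SE 1.07, adjusted p = 6.77e-07, and -10.48 without CTL muscle 2). The muscle group held the growth inhibitor myostatin (Mstn, 23.7 against 0 CPM, no count in any liver library, at least 304-fold higher in muscle, adjusted p = 5.24e-07), Ostn (34.2 against 0 CPM, no count in any liver library, at least 313-fold higher in muscle, adjusted p = 1.11e-06), Fndc5 (64.6 against 0.297 CPM, log2 fold change 6.80, SE 0.72, adjusted p = 6.07e-07, and 8.03 without CTL liver 3), Il15 (12.2 against 5.27 CPM, log2 fold change 1.07, SE 0.35, adjusted p = 0.0166, not called without CTL muscle 1 (0.88)) and decorin (Dcn, 502 against 239 CPM, log2 fold change 1.20, SE 0.25, adjusted p = 0.000627). The stress hormones Fgf21 and Gdf15 did not pass the filter on low counts (0 against 0.499 CPM and 1.13 against 10.8 CPM). Among receptors, Ghr for growth hormone measured 152 to 285 CPM in muscle (median 183) and 577 to 2839.9 CPM in liver (median 742) (log2 fold change -2.45, SE 0.42, adjusted p = 9.89e-05, and -1.75 without CTL liver 3), with its highest value in CTL liver 3. The groups did not overlap. In the list of leptin, glucocorticoid and growth hormone receptors and targets, 4 of 22 tested members were higher in muscle, 7 in liver and 11 did not pass the test, which is no more than the 24.7% and 33.7% of all tested genes, and the insulin receptor Insr was also higher in liver (42.7 against 77.7 CPM, log2 fold change -0.94, SE 0.19, adjusted p = 0.000513). Igf1r (35.7 against 7.18 CPM, log2 fold change 2.10, SE 0.30, adjusted p = 1.5e-05), Irs1 (104 against 44 CPM, log2 fold change 1.16, SE 0.32, adjusted p = 0.00508) and Stat5b (187 against 68.9 CPM, log2 fold change 1.70, SE 0.31, adjusted p = 0.000197) were higher in muscle. The glucocorticoid receptor Nr3c1 did not pass the test (45.2 against 40.7 CPM, log2 fold change 0.23, SE 0.22, adjusted p = 0.394), and the leptin receptor Lepr had medians of 0.768 against 1.48 CPM and was not tested.

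The machinery of protein synthesis and breakdown was close between the tissues. Of 73 tested cytosolic ribosomal proteins, 68 did not pass the test, and the class took 1.43% to 2.15% of counts in muscle (median 1.75%) and 1.5% to 1.97% in liver (median 1.65%). The median log2 fold change was -0.09 for them, -0.06 for mitochondrial ribosomal proteins and -0.03 for proteasome subunits, of which 27 of 34 did not pass the test. A pair of ribosomal paralogs differed more. Rpl3l, a striated muscle paralog of Rpl3, measured 179 to 552 CPM in muscle (median 471) and 0 to 0.31 CPM in liver (median 0.106) (log2 fold change 11.06, SE 0.50, adjusted p = 2.27e-10), and Rpl3 measured 27.7 to 89.7 CPM in muscle (median 41.5) and 167 to 277 CPM in liver (median 193) (log2 fold change -2.13, SE 0.28, adjusted p = 6.24e-06). Rpl3l made up 66.7% to 95.2% in muscle (median 91.9%) and 0% to 0.186% in liver (median 0.0559%) of the pair. Elongation factor 1 alpha was read from Eef1a2, higher in muscle (594 against 0.357 CPM, log2 fold change 10.07, SE 0.56, adjusted p = 8.01e-10, and 10.71 without CTL liver 6), and Eef1a1, higher in liver (2.78 against 32.5 CPM, log2 fold change -3.66, SE 0.34, adjusted p = 1.35e-07). Eef1a1 has many processed copies in the genome, to which its reads may have been lost. Its low level in both tissues and the ratio of the pair may thus rest on the counting, which was not tested. Genes of the secretory pathway and endoplasmic reticulum were higher in liver in 28 of 36 tested, for example the chaperone Hspa5 (256 against 865 CPM, log2 fold change -1.97, SE 0.34, adjusted p = 0.000108), and higher in muscle in 2, Sar1b (320.0 against 178 CPM, log2 fold change 0.96, SE 0.28, adjusted p = 0.00712) and Ssr1 (285 against 84.4 CPM, log2 fold change 1.72, SE 0.22, adjusted p = 6.31e-06).

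Several genes often used as references for such comparisons differed between the tissues. Of 18 tested, 4 were higher in muscle, 8 in liver and 6 did not pass the test, near the 24.7% and 33.7% of all tested genes higher in muscle and in liver. Gapdh measured 266 to 596 CPM in muscle (median 359) and 47.8 to 129.9 CPM in liver (median 56.3) (log2 fold change 2.60, SE 0.32, adjusted p = 3.4e-06). Beta-actin (Actb) measured 149.5 to 472 CPM in muscle (median 299) and 330.1 to 1756 CPM in liver (median 1005) (log2 fold change -1.73, SE 0.47, adjusted p = 0.00483). B2m, the light chain of MHC class I, measured 124 to 796 CPM in muscle (median 232) and 1486 to 5297 CPM in liver (median 3188) (log2 fold change -3.40, SE 0.51, adjusted p = 2.56e-05, and -3.79 without CTL muscle 2). Others higher in liver included Ppia (log2 fold change -2.06), Rpl13a (-1.48), Gusb (-1.46), Ywhaz (-1.29) and Hprt (-1.09, a call that changed in 9 of 12 fits that each left out 1 library). Tfrc (2.32), Pgk1 (1.17) and Rplp0 (0.57, not called without CTL muscle 3 (0.53)) were higher in muscle. Sdha (log2 fold change 0.12, SE 0.23, adjusted p = 0.689), Polr2a (log2 fold change 0.12, SE 0.24, adjusted p = 0.692), Eef2 (log2 fold change 0.25, SE 0.37, adjusted p = 0.587), Tbp (log2 fold change -0.57, SE 0.44, adjusted p = 0.284) and Tuba1b (log2 fold change -0.46, SE 0.36, adjusted p = 0.295) were among those that did not pass the test. These fold changes rest on TMM scaling, and the shift of 0.13 (log2) under relative log expression applies to each of them. Reads of Gapdh may also have been lost to near-identical pseudogenes, and such loss was not tested for the other reference genes.

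Markers of other cell types were read in both tissues. Kupffer cell and macrophage markers were higher in liver in 14 of 15 tested, with Cd5l (0 against 146 CPM, 2 counts in all muscle libraries, ratio of pooled CPM 1285, counting interval 355 to 10613, adjusted p = 5.91e-08) and Clec4f (0 against 51.6 CPM, no count in any muscle library, at least 295-fold higher in liver, adjusted p = 8.37e-07) among those with at most 3 muscle counts. Of 15 tested endothelial markers, 6 were higher in muscle, such as Flt1 (85.1 against 20.6 CPM, log2 fold change 1.90, SE 0.26, adjusted p = 1.28e-05), and 4 higher in liver, such as the sinusoidal lectin Clec4g (0 against 64.5 CPM, 1 count in all muscle libraries, ratio of pooled CPM 1369, counting interval 245 to 54086, adjusted p = 4.69e-10). The other 5 did not pass the test, beside 24.7% and 33.7% of all tested genes higher in muscle and liver, and the shares of the list overlapped. Fibroblast and stellate cell markers took 0.112% to 0.28% of counts in muscle (median 0.142%) and 0.0387% to 0.0605% in liver (median 0.0422%). Of 13 tested, 9 were higher in muscle, such as Col1a1 (196 against 9.86 CPM, log2 fold change 4.24, SE 0.29, adjusted p = 5.9e-09), and 4 were higher in liver. The list joins markers of cells of both tissues. All 5 tested nerve and Schwann cell markers and all 3 tested tendon and cartilage markers were higher in muscle, for example Thbs4 of tendon (86.8 against 0 CPM, no count in any liver library, at least 1755-fold higher in muscle, adjusted p = 3.52e-06). Satellite cell markers were higher in muscle in 5 of 6 tested and in liver in 1, Vcam1 (7.45 against 23.1 CPM, log2 fold change -1.93, SE 0.42, adjusted p = 0.000871). Of erythrocyte markers, 5 of 5 tested did not pass the test, and they took 0.106% to 1.01% of counts in muscle (median 0.141%) and 0.133% to 1.62% in liver (median 0.172%). Of cholangiocyte markers 3 were tested, with 1 higher in each tissue, and of lymphocyte and neutrophil markers 2, with 1 higher in each.

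Counted over the 39 paralog pairs reported here, the ratio of the member set as the muscle form to that set as the liver form was higher in every muscle library than in every liver library for 35 pairs. In 25 pairs the 2 members were called in opposite directions, in 2 both were higher in muscle (Atp2a1 with Atp2a2, Ldhb with Ldha), in 1 both were higher in liver (Gpt2 with Gpt), and in 11 at least 1 member was not called or not tested. By the median ratio the member with more counts changed between the tissues in 29 pairs, and in 21 it did so in every library. The pairs were chosen for known tissue forms with earlier results of these data in view, so these counts describe the set. The form named for a member gives the order of reading and does not make it particular to that tissue. For example, of members set as the liver form, Atp2a2 was higher in muscle and Cox7a2 did not pass the test. Ldhb over Ldha is only the order in which that pair was read. Ldha is not a liver form, since it held most counts of the pair in muscle too and was higher there than in liver. In 9 pairs some library held under 20 counts of both members together, among them that of Cpt1b, whose ratio rests on the added count of 0.5 alone. Among the other 30, 27 did not overlap, 24 changed their leading member by median and 22 were called in opposite directions. Reads of Eno1, Pgam1 and Eef1a1 may have been lost to near-identical copies, so the ratios of their pairs may rest on the counting. These pairs are included in the totals over all 39 pairs. By median the muscle form led in both tissues for lipin (Lpin1, 99.4% and 50.4% of the pair in muscle and liver), succinyl-CoA ligase (Sucla2, 93.2% and 59.7%), AMP-activated kinase (Prkaa2, 92.1% and 71.1%), alanine aminotransferase (Gpt2, 93% and 68.8%), the insulin receptor substrates (Irs1, 82.5% and 60.3%) and branched-chain aminotransferase (Bcat2, 98.8% and 100%). Among these, Lpin2 led in CTL liver 2, 3 and 5, Irs2 in CTL liver 3 and 5 and Prkaa1 in CTL liver 3. Ldha led in both tissues for lactate dehydrogenase, in which Ldhb made up 6.82% and 0.404%. By median the liver form led in both for arginase, phosphoenolpyruvate carboxykinase and, with Cpt1b listed at 0, carnitine palmitoyltransferase 1. In single muscle libraries this did not hold: Arg2 led in CTL muscle 3 and Pck2 in CTL muscle 6, and both pairs were tied in CTL muscle 5. The lowest counts of a pair in a muscle library were 1 for arginase and 10 for phosphoenolpyruvate carboxykinase. The 4 pairs that overlapped were those of acetyl-CoA carboxylase (Acacb, 81.9% and 38.3% of the pair with Acaca), AMP-activated kinase, the insulin receptor substrates and branched-chain aminotransferase. Other pairs whose leading member changed by median were those of actin (Acta1, 99% and 0.164% of the pair with Actb), adenylosuccinate synthase (Adssl1, 97.7% and 22% of the pair with Adss) and the phosphorylase kinase alpha subunit (Phka1, 98.6% and 36.9% of the pair with Phka2, and above 50% in CTL liver 5 and 6).

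**Figure D5:**
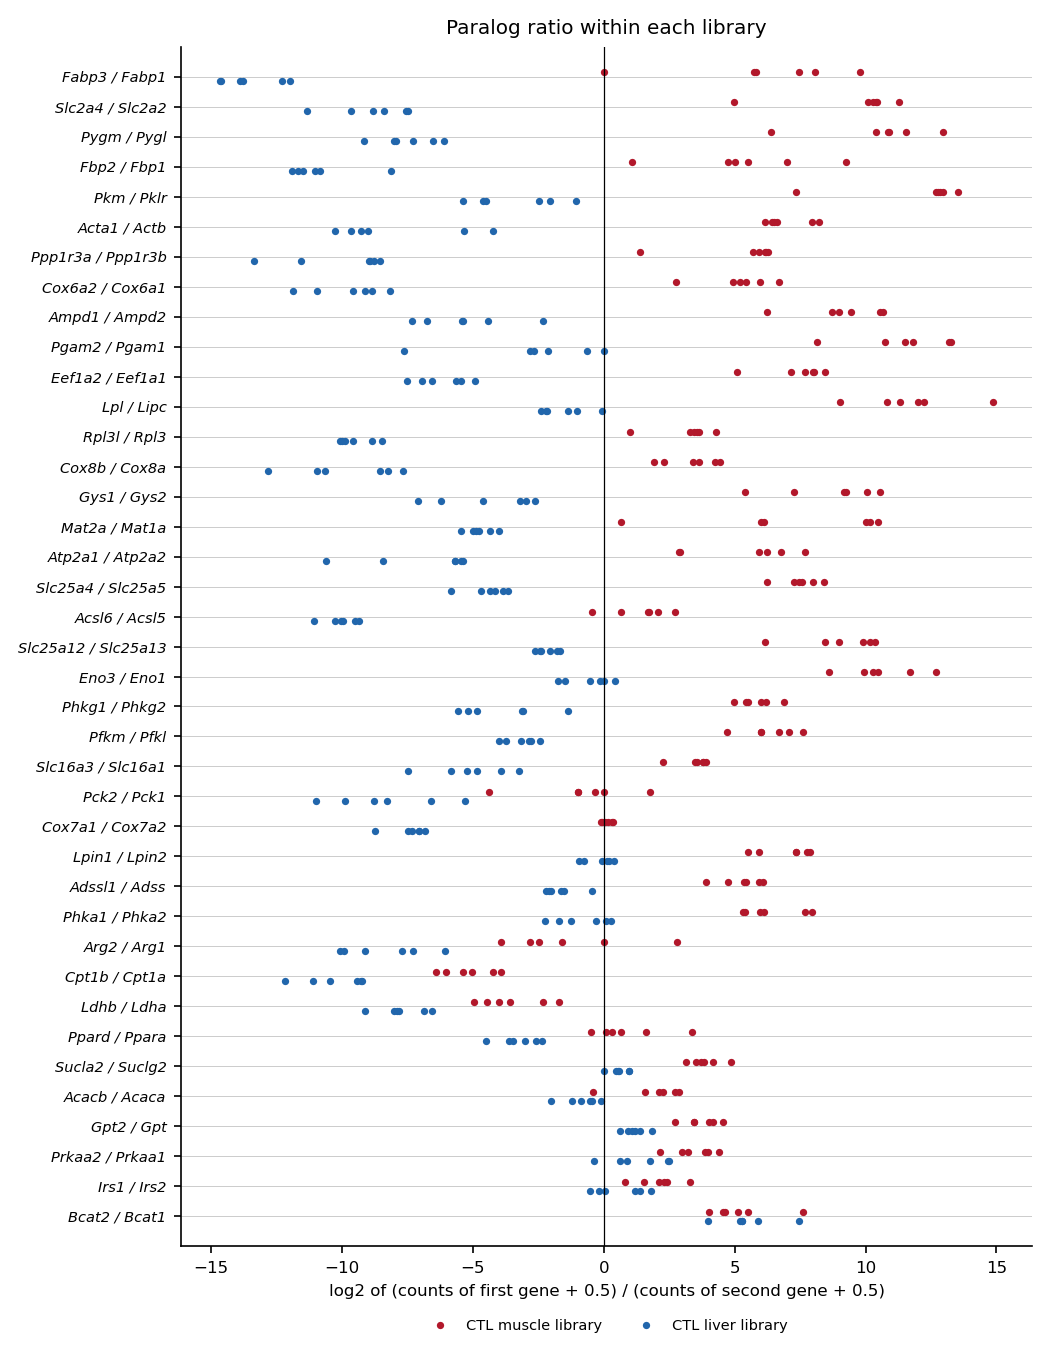
Each row is a paralog pair and each point 1 library, with the log2 ratio of the counts of the first gene to those of the second (0.5 added to each) on the x axis, red for CTL muscle and blue for CTL liver. In 35 of 39 rows all red points lie to the right of all blue points, and in 29 the medians lie on opposite sides of 0.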

How the data were processed

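Gene counts from QuantSeq 3′ libraries (Lexogen) were analysed in 6 CTL muscle and 6 CTL liver libraries. The authors trimmed single-end reads with BBDuk, aligned them with STAR (version 2.5.0a) to mouse genome build GRCm38.p6 and counted reads per gene with HTSeq (version 0.6.1), and the deposited values are raw counts for 55401 gene identifiers. The annotation release is not given in the sources used here, 55141 identifiers were matched to a symbol through the reference gene table, and the reads carried no molecular identifiers, so that intervals (95%, Clopper-Pearson) and bounds (3 counts over a tissue) cover counting error only.

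Samples were grouped by their labels. The test was the quasi-likelihood test of edgeR (4.0.16, R 4.3.3) with TMM scaling and filterByExpr, which for 6 libraries per tissue kept genes at about 10 counts or more at the median library size in at least 6 libraries, tissue as the only term and Benjamini-Hochberg adjustment over 10059 genes, called at an adjusted p under 0.05. The deepest libraries carry the smallest counting error, and CTL muscle 2 the largest. Concentration measures were compared by two-sided exact permutation tests. Class shares and pair ratios (0.5 added to each count) were described without a test. Counts were also simulated with the gene means of CTL liver in both tissues, the real library sizes, a single dispersion and few changed genes. Over 9536 genes the fit recovered 30 of 100 genes changed 2-fold and 97 of 99 changed 4-fold, with 5.93% of 135 calls false. The real tissues differed in far more genes and by larger folds, so these rates do not carry over to the real comparison. Alternatives covered scaling, filters, DESeq2 (1.42.0), a 2-fold threshold (glmTreat), labelled sex, a replicate block, depth and single libraries. Alternatives by the shared division of libraries, and without CTL muscle 2 and CTL liver 1 and 4 together, were chosen after seeing the data.

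Named genes were both members of each pair, the 10 most abundant genes and 10 largest folds of each tissue, members of lists with the highest CPM (up to 8) or against their list's majority, and all members of the lists on reference genes, glutamate transfer and complex IV. Acadvl, Clec4f, Cyp7a1, Fgf21, Gdf15, Lepr, Myf6, Myh1, Myh2, Myod1, Neb, Nr3c1, Sco2 and Uqcrc1 fall outside these rules and were chosen after their values were seen. The comparison, its lists and its pairs were chosen with earlier results of these data known. Some genes that the rules name, and the pairs that hold them, are not reported here. Promoter sequences and motifs were read from RefSeq on GRCm38.p6.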

Additional observations from a re-analysis of the deposited data

Results flagged for a closer look

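Each class share, pair ratio, concentration measure and gene with its range in the report was read in each tissue for a library far from the other 5, by the gap to its nearest neighbour as a part of the range (Dixon's 95% limit for 6 samples). Of 262 such groups, 49 held 1, 36 of them through CTL muscle 2, and chance gives about 1 in 20 groups. In CTL muscle 2 the share of counts (with the highest share in the other 5 muscle libraries) was 0.106% for amino acid breakdown (others up to 0.0202%), 0.303% for cholesterol and fatty acid synthesis (others up to 0.083%), 0.197% for lipoproteins and lipid export (others up to 0.0356%), 0.446% for plasma carriers and binding proteins (others up to 0.0279%), 0.0688% for coagulation and fibrinolysis (others up to 0.0063%), 0.329% for complement (others up to 0.0784%), 0.0548% for serpin A1 and A3 families and acute phase (others up to 0.00443%), 0.00644% for major urinary proteins (others up to 0.000392%), 0.143% for cytochromes P450 and reductases (others up to 0.0288%), 0.115% for phase II conjugation (others up to 0.0703%) and 0.282% for secreted hormones and cytokines (others up to 0.108%). Liver genes followed in the same library, with CPM of 1430.3 for Alb, 834 for Apoe, 796 for B2m, 19.2 for Cps1, 56.1 for Cyp2e1, 49.7 for Cyp3a11, 184 for Fabp1, 22.4 for G6pc and 285 for Ghr. Further CPM values above its group there were 17.6 for Hnf4a, 86.5 for Igf1, 181 for Pck1, 27.2 for Pygl, 89.7 for Rpl3, 886 for Scd1, 6.41 for Slc25a13, 3.2 for Slc2a2 and 298 for Ttr. The muscle glucose transporter went the other way, at a CPM of 127 for Slc2a4 (others 265 to 329.9). Its log2 ratios of paralogs lay below those of the other muscle libraries, at 7.33 for Pkm over Pklr (others from 12.68), 1.38 for Ppp1r3a over Ppp1r3b (others from 5.70), 4.99 for Slc2a4 over Slc2a2 (others from 10.09), 2.28 for Slc16a3 over Slc16a1 (others from 3.49) and 0.99 for Rpl3l over Rpl3 (others from 3.29). The expected number of genes detected at the common depth was 13341 in CTL muscle 2 and 11058 to 11569.9 in the other 5. The origin of these values was not tested.

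Among liver libraries, the values that stood apart were those of CTL liver 1, 3, 4, 5 and 6. The share of glycogen metabolism was 0.102% in CTL liver 3 and 0.168% to 0.197% in the other liver libraries. The share of serpin A1 and A3 families and acute phase was 4.97% in CTL liver 4 and 3.16% to 3.67% in the other liver libraries. The share of cytosolic protein secretion and endoplasmic reticulum was 0.884% in CTL liver 3 and 0.469% to 0.576% in the other liver libraries. The share of leptin, glucocorticoid and growth hormone receptors and targets was 0.551% in CTL liver 3 and 0.188% to 0.274% in the other liver libraries. Cox6a2 measured 3.42 CPM in CTL liver 5 and 0 to 1.13 in the other 5. Cox8a measured 512 CPM in CTL liver 4 and 217 to 306 in the other 5. Gapdh measured 129.9 CPM in CTL liver 4 and 47.8 to 66.3 in the other 5. Ghr measured 2839.9 CPM in CTL liver 3 and 577 to 779 in the other 5. Myh7 measured 0.519 CPM in CTL liver 6 and 0 in the other 5. Rpl3 measured 277 CPM in CTL liver 4 and 167 to 205 in the other 5. The log2 ratio of Pgam2 over Pgam1 was -7.62 in CTL liver 1 and -2.81 to 0.00 in the other 5. The log2 ratio of Fbp2 over Fbp1 was -8.12 in CTL liver 5 and -11.89 to -10.84 in the other 5. The log2 ratio of Cox7a1 over Cox7a2 was -8.74 in CTL liver 6 and -7.49 to -6.81 in the other 5.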

How the results depend on the processing

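The counts of genes higher in muscle and in liver stayed within 1.5 times of 2488 and 3388 under every alternative run except 3. Without an expression filter 3999 genes were higher in muscle (21669 tested), with DESeq2, run without that filter and with its own size factors, 4219, and against a 2-fold change (glmTreat) 1396 were higher in muscle and 2059 in liver. The percent of calls higher in muscle was 42.3, against 51.4 with DESeq2, 47.2 without the filter alone and 47.5 with relative log expression alone, which moved the median over all genes by 0.13 (log2). Leaving out 1 library gave 2302 to 2966 and 2919 to 3420 genes. With the replicate number as a block the counts were 2272 and 3096, but same-numbered muscle and liver libraries correlated between -0.43 and 0.56 and only 1 of 6 correlated best with its own number, and the numbers were not taken as pairs. No gene called in the main comparison changed sign, except 4 and 7 genes within either side of the shared division. Without mtDNA-encoded genes the difference in the share of the 10 most abundant genes, muscle minus liver, fell to 2.05 percentage points, and that in genes holding 50% of the counts turned to 9.0. Leaving out 1 library kept these at 8.25 to 10.3 and -68.6 to -51.2, while that in genes detected ranged from -119 to 359, the lowest without CTL muscle 2. Non-overlapping classes numbered 12 to 13 in muscle and 21 to 22 in liver, pairs 35 to 37, and pairs that changed their leading member 29 to 30, each with 1 library left out. Genes with log2 fold changes near 0 that did not pass the test changed sign: Acadl to -0.605 to 0.0813 (leaving out 1 library), Cox7a2 to 0.0790 (relative log expression), 0.0196 (library totals), 0.0801 (DESeq2), 0.275 (no CTL liver 1 and 4), 0.100 (thinning), 0.392 (neither these nor CTL muscle 2), 0.377 (its other side), -0.144 to 0.193 (leaving out 1 library), Cox7a2l to -0.0969 (one side of the division), Got1 to 0.0138 (the block), 0.315 (no CTL liver 1 and 4), 0.282 (neither these nor CTL muscle 2), 0.0412 (one side of the division), -0.423 to 0.130 (leaving out 1 library), Got2 to 0.0463 (its other side). The same held for Irs2 to 0.248 (its other side), -0.551 to 0.0293 (leaving out 1 library), Mdh1 to 0.0837 (no CTL liver 1 and 4), 0.128 (neither these nor CTL muscle 2), 0.141 (its other side), -0.558 to 0.0887 (leaving out 1 library), Pck2 to -0.180 (its other side), Polr2a to -0.0622 to 0.332 (leaving out 1 library), Prkaa1 to 0.231 (one side of the division), Tuba1b to 0.263 (one side of the division). Over all named genes and alternatives, a call was lost 104 times and gained 29 times, and the causes were not tested. With thinned libraries 2322 and 2615 genes were called of 9246 tested, and how far the depth of CTL muscle 2 (434494 counts) alone limited the calls was not tested.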
